A study of Mus musculus with 4 samples.

Results

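The genes described here are the ligands of the tumour necrosis factor (TNF) superfamily, their receptors and the TRAF adaptor proteins, measured in primary mouse Kupffer cells given maresin 1. Members were chosen by gene symbol: names that begin with Tnfsf or Tnfrsf, Traf1 to Traf7, and Tnf, Lta, Ltb, Ltbr, Fas, Fasl, Cd27 and Cd70, with 1 receptor gene left out. The array carried 64 probes for 45 such genes, out of 56605 probes and 45616 gene names or unnamed transcripts in all. Of these 45 genes, 40 had a probe well above background on both arrays of a group and were tested, among 24067 genes tested in all; each of their 54 kept probes was well above background on all 4 arrays. The other 5 genes (Tnfsf4, Tnfsf11, Tnfsf13b, Tnfrsf8 and Tnfrsf17) were not well above background on any array.

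The vehicle group was Kupffer cells in culture given ethanol for 24 h, and the maresin 1 group was the same kind of culture given 200 nM maresin 1 for 24 h, both in RPMI medium with 0.1% serum. All cells came from male C57BL/6 mice aged 8 weeks, with no other allele or agent named in the labels, and each group had 2 arrays. Kupffer cells are the resident macrophages of the liver, and maresin 1 is a lipid mediator made from docosahexaenoic acid. Whether the 2 arrays per group stand for separate mice or cultures is not in the labels, so a p-value here covers the spread of these 4 arrays alone and that spread may be technical. All 4 arrays shared 1 slide, vehicle at the first positions and maresin 1 at the next, so slide position and treatment cannot be told apart.

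Ligands of the TNF superfamily are mostly trimeric proteins on the cell surface that can be shed as soluble cytokines. Each binds receptors with cysteine-rich repeats: death domain receptors can start apoptosis through FADD and caspase-8, and most others recruit TRAF adaptors, which pass the signal to NF-kappaB and MAP kinases. Decoy receptors bind a ligand without passing on the signal. In the liver, Kupffer cells are a main source of TNF, and the TNF, Fas and TRAIL systems are known for their part in hepatocyte death and inflammation.

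On these arrays a level is a probe's log2 signal relative to the 75th percentile of its array, and a difference is the maresin 1 mean minus the vehicle mean. The 75th percentile was a linear signal of 961 and 988 with vehicle and 946 and 847 with maresin 1, and 54.4% to 55.6% of probes were well above background. Over all probes, Pearson's r was 0.9960 for the pair of vehicle arrays, 0.9947 for the maresin 1 pair and 0.9920 to 0.9928 for a vehicle array against a maresin 1 array. All 9 listed markers of Kupffer cells and macrophages were above background, and Clec4f, a lectin restricted to Kupffer cells, stood at a level of 6.34 to 6.46 on the 4 arrays. Markers of other liver and blood cells were also measured, and fewer cells of a type and less RNA per cell cannot be told apart in these bulk samples. Levels of different members come from different probes and are not compared with each other; summed marker levels are compared only between arrays.

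Maresin 1 cultures differed from vehicle in 22 of the 40 members: 12 rose and 10 fell (limma's moderated test, adjusted p under 0.05 over all genes tested). Across all genes tested, 24% passed, 11.2% higher and 12.7% lower; among the members 55.0% passed. The median difference of the members was 0.01, against -0.02 for all genes, while the median size of a difference was 0.32, against 0.18. The 2 groups did not overlap for 32 members (80.0%), against 69.5% of all genes. Among the members, 13 (32.5%) passed with a difference of at least 0.5 on the log2 scale, against 12.1% of all genes. The directions differed by role. Of the 13 ligands measured, 5 fell and 1 rose; all 4 decoy, soluble or mouse-specific receptors rose; and the 7 TRAF genes had differences of at most 0.35 in size.

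**Figure D1:**
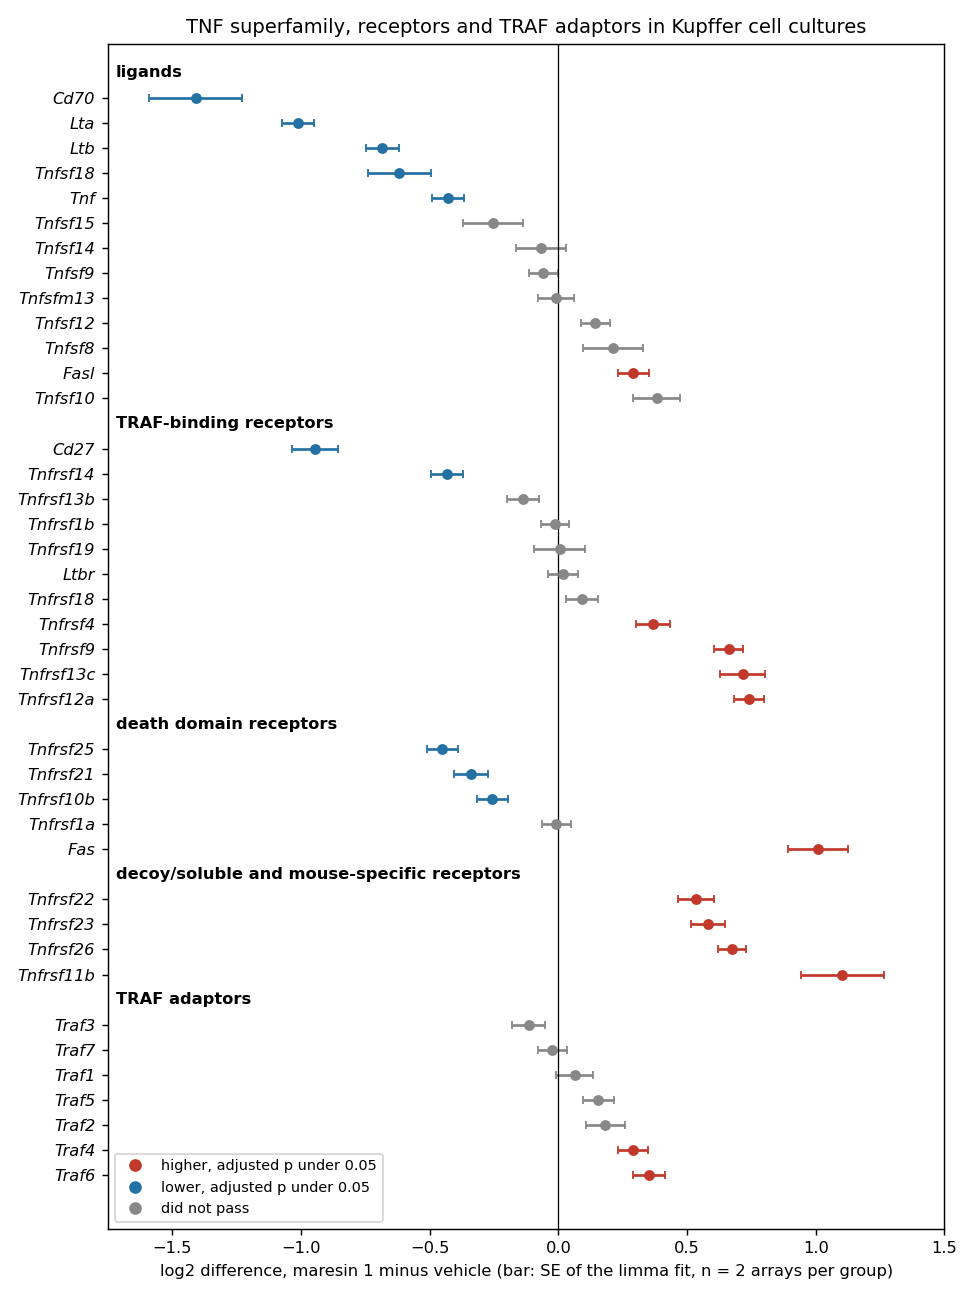
Log2 difference between maresin 1 and vehicle for the 40 members measured, grouped by role; points are fitted differences, bars the fitted SE (n = 2 per group), and colours show whether adjusted p was under 0.05. The ligands Cd70 (-1.41) and Lta (-1.01) lie farthest to the left, Tnfrsf11b (1.10) and Fas (1.01) farthest to the right, and the main TNF receptors Tnfrsf1a and Tnfrsf1b lie at -0.01.

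**Figure D2:**
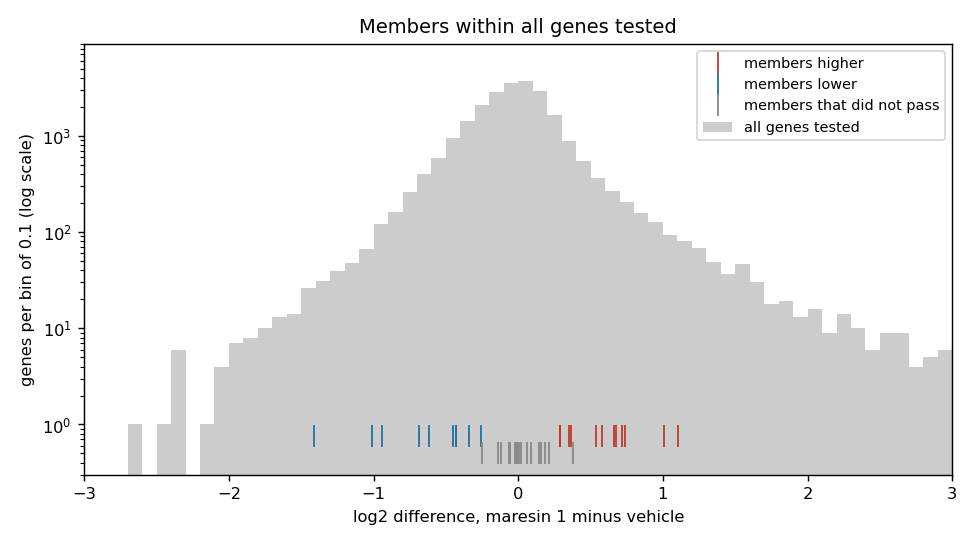
Distribution of the log2 difference over all 24067 genes tested (grey bars, bins of 0.1, log-scaled count axis, drawn from -3 to 3) with the 40 members as ticks. The members reach from -1.41 to 1.10, well inside the range of all genes.

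The calls depended on having all 4 arrays, and over all genes too fewer passed with 1 array left out. Without vehicle replicate 1, 4 members passed as higher and 4 as lower. Without vehicle replicate 2 the numbers were 7 and 4, without maresin 1 replicate 1 they were 9 and 6, and without maresin 1 replicate 2 they were 6 and 3. In such a fit the lone array of a group is assumed to vary like the pair of the other group. Whichever array was left out, Lta, Ltb, Cd27, Fas, Tnfrsf9, Tnfrsf12a and Tnfrsf26 passed, which is 7 of 40 (17.5%), against 5.83% of all genes. With no filter on dim probes, which puts more genes into the test, 4 members passed as higher and 4 as lower. That is 17.8% of the 45 members, against 4.51% of all genes. Of the members described array by array, Cd70, Fas, Fasl, Tnf, Tnfrsf10b, Tnfrsf11b, Tnfrsf13c, Tnfrsf22, Tnfsf18 and Traf6 then missed the threshold narrowly (adjusted p 0.0541 to 0.0601).

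The promoters of the 5 members with the largest changes among those matched to a RefSeq promoter (37 of the 45 members, 41 entries, build GRCm38.p6) are shown because these genes moved in opposite directions. Each is the 250 bases before the start site, 5′ to 3′ on the strand of the gene, with motif matches in capitals. Those of Lta (chr17:35205352-35205601, minus strand) and Cd27 (chr6:125237028-125237277, minus strand) belong to genes that fell. Those of Fas (chr19:34290409-34290658, plus strand), Tnfrsf12a (chr17:23677450-23677699, minus strand) and Tnfrsf13c (chr15:82224381-82224630, minus strand) belong to genes that rose. The motifs searched on both strands were NF-kappaB (GGGA, any base, then TTTCC), STAT (TTCNNNGAA), STAT6 (TTC and GAA with 4 bases of any kind between them), AP-1 (TGANTCA) and the ROR half-site (AGGTCA); STAT6 and STAT matches can overlap.
Lta: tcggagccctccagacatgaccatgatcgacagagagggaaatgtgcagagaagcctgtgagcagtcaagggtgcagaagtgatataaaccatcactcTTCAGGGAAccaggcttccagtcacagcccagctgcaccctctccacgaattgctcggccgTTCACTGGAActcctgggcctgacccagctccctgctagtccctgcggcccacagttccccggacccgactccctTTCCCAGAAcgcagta
Fas: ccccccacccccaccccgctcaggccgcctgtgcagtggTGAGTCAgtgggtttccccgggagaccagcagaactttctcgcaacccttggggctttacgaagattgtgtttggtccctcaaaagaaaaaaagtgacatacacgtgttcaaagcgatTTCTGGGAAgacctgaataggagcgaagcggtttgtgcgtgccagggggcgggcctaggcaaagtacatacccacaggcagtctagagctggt
Cd27: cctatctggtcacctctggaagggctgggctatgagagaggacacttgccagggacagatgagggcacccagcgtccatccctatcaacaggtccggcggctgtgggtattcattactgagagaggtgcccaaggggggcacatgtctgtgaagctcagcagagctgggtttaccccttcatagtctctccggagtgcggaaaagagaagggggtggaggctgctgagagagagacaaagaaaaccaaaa
Tnfrsf12a: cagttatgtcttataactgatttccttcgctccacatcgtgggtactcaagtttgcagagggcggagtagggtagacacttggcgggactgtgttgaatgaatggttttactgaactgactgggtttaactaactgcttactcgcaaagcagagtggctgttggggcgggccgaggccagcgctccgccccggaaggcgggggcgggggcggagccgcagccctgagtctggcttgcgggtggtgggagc
Tnfrsf13c: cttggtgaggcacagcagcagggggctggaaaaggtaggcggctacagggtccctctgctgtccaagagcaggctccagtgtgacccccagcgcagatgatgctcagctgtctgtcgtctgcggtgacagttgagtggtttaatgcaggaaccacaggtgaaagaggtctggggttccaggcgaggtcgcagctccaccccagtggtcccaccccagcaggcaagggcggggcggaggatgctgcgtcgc
The Lta window held 2 STAT matches, TTCAGGGAA and TTCCCAGAA, and 1 STAT6 match, TTCACTGGAA. The Fas window held 1 AP-1 match, TGAGTCA, and 1 STAT match, TTCTGGGAA, while the other 3 windows held none of these letters. Over the 41 member entries, 19.5% held STAT, 9.76% STAT6, 12.2% AP-1, 4.88% the ROR half-site and 2.44% NF-kappaB. Over all 32851 promoters of this length the shares were 7.02%, 5.85%, 6.75%, 14.0% and 0.356%. The NF-kappaB match was in the Ltb promoter. A match is a description of the letters and not a site of binding.

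Among the ligands, the lymphotoxin and TNF genes fell together. Lta encodes lymphotoxin alpha, which binds the TNF receptors as a soluble trimer. Its level was -1.99 and -2.08 with vehicle and -3.05 on both maresin 1 arrays. Both maresin 1 arrays were below both vehicle arrays, and Lta fell 2.02-fold (-1.01 ± 0.06, where ± is the fitted SE here and below and n is 2 per group; adjusted p = 0.00341). Ltb encodes the membrane partner with which lymphotoxin alpha engages the lymphotoxin beta receptor. It stood at 2.92 and 2.89 with vehicle and at 2.27 and 2.18 with maresin 1, without overlap, and fell 1.61-fold (-0.68 ± 0.06, adjusted p = 0.00718). Tnf, the founding cytokine of the family, stood at 3.02 on both vehicle arrays and at 2.63 and 2.55 with maresin 1. It fell 1.35-fold (-0.43 ± 0.06, adjusted p = 0.0166), and its second probe fell alike (-0.40 ± 0.06, adjusted p = 0.0203 over all probes). The call of Tnf was lost without either vehicle array or without maresin 1 replicate 2 (adjusted p up to 0.0824).

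Cd70 showed the largest difference of all members. Its product is the ligand of the co-stimulatory receptor CD27. The level of Cd70 was -3.28 and -2.86 with vehicle and -4.35 and -4.62 with maresin 1. Signals were low, 98.6 and 136 against 46.5 and 34.5 on the linear scale, but did not overlap, and Cd70 fell 2.66-fold (-1.41 ± 0.18, adjusted p = 0.0134). With normexp background correction, whose offset of 50 pulls dim probes together, the difference was -0.64, and without maresin 1 replicate 2 the call was lost (adjusted p = 0.0632). Tnfsf18, which encodes the ligand of the receptor GITR, lay at -4.85 and -4.83 with vehicle and -5.30 and -5.62 with maresin 1. It fell by 0.62 ± 0.12 on the log2 scale (adjusted p = 0.0332), with a value of -0.16 under normexp (adjusted p = 0.103), and the call held only without maresin 1 replicate 1 among the fits that left out an array.

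The ligand genes Fasl and Tnfsf10 had higher levels with maresin 1. Fasl, whose product triggers apoptosis through Fas, had levels of 0.05 and -0.02 with vehicle and 0.29 and 0.32 with maresin 1. The groups did not overlap and Fasl rose 1.22-fold (0.29 ± 0.06, adjusted p = 0.0373), but leaving out any 1 array ended the call (adjusted p up to 0.157). Tnfsf10 encodes TRAIL, the ligand of the death receptor encoded by Tnfrsf10b. It stood at 1.28 and 1.30 with vehicle and at 1.56 and 1.78 with maresin 1. Both maresin 1 arrays were higher, but the difference of 0.38 ± 0.09 (95% interval 0.13 to 0.63) missed the threshold (adjusted p = 0.0514), and it passed where only probes above background on all arrays were tested (adjusted p = 0.0409) and without maresin 1 replicate 1.

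Another 6 ligands did not pass. Tnfsf9, the gene of the 4-1BB ligand, had a difference of -0.06 (95% interval -0.21 to 0.09), and Tnfsf14, which encodes LIGHT, one of -0.07 (-0.33 to 0.19). Tnfsf12, which encodes TWEAK, had a difference of 0.14 (-0.01 to 0.30). For the TL1A gene Tnfsf15 it was -0.25 (-0.57 to 0.07) and for the CD30 ligand gene Tnfsf8 0.21 (-0.10 to 0.53). Tnfsfm13 is a read-through transcript of the neighbours Tnfsf12 and Tnfsf13 with a difference of -0.01 (-0.20 to 0.18). Which of these transcripts its probe reads was not tested. The probes of Tnfsf11, whose product drives osteoclast formation, had linear signals of 5.44 to 17.4, and that of Tnfsf13b, which encodes the B cell survival factor BAFF, 9.19 to 17.8.

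**Figure D3:**
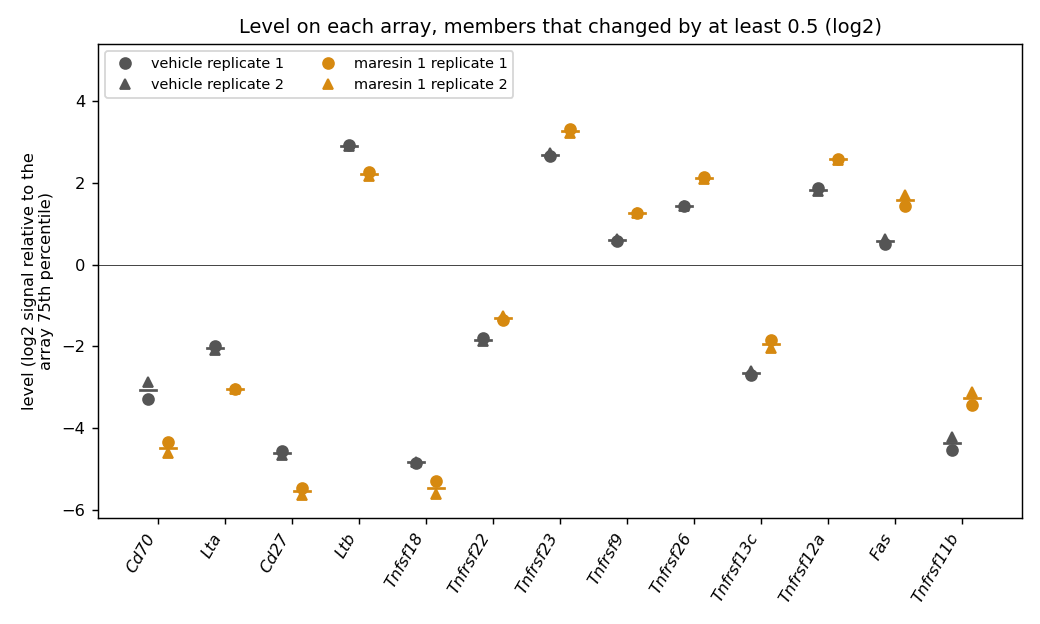
Level on each of the 4 arrays (log2 signal relative to the array's 75th percentile) for the 13 members that passed with a difference of at least 0.5; circles are replicate 1, triangles replicate 2, and lines group means (n = 2). Groups that do not overlap were a condition of the choice, save for Lta, Ltb and Fas, whose values are given in every case. Both maresin 1 arrays lie below both vehicle arrays for Cd70, Lta, Cd27, Ltb and Tnfsf18, and above them for the other 8.

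Of the 11 TRAF-binding receptors measured, 4 rose and 2 fell (54.5% passed, against 24% of all genes). Tnfrsf12a encodes Fn14, the TWEAK receptor, known for its induction in injured liver. Its level was 1.87 and 1.80 with vehicle and 2.59 and 2.57 with maresin 1, and it rose 1.67-fold (0.74 ± 0.06, adjusted p = 0.00538). Tnfrsf9 encodes the activation receptor 4-1BB. It stood at 0.59 and 0.62 with vehicle and at 1.28 and 1.26 with maresin 1, and rose 1.58-fold (0.66 ± 0.06, adjusted p = 0.00576). The other probe of Tnfrsf9 rose by 0.83 ± 0.06 on the log2 scale. For both genes the groups were far apart compared with the gap between the arrays of a group.

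Tnfrsf13c, the BAFF receptor gene, best known from B cells, had levels of -2.70 and -2.61 with vehicle and -1.85 and -2.03 with maresin 1. It rose 1.64-fold (0.72 ± 0.09, adjusted p = 0.0122), a call lost without vehicle replicate 1 (adjusted p = 0.0582). Tnfrsf4, the gene of OX40, rose by 0.37 ± 0.07 (adjusted p = 0.0265), a call that was lost without any 1 array (adjusted p up to 0.118). Cd27, a co-stimulatory receptor of lymphocytes, had levels of -4.55 and -4.66 with vehicle and -5.46 and -5.63 with maresin 1. The linear signals were low, 41.1 and 39.1 against 21.5 and 17.0, and Cd27 fell 1.93-fold (-0.95 ± 0.09, adjusted p = 0.00712), with a difference of -0.26 under normexp (adjusted p = 0.0114). Tnfrsf14, which encodes HVEM, a receptor for LIGHT, fell by 0.43 ± 0.06 on the log2 scale (adjusted p = 0.0171), a call lost without any 1 array. Its other probe had a value of -0.27 and missed the threshold (adjusted p = 0.0746 over all probes).

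The receptors through which TNF and the lymphotoxins act had differences near 0. Tnfrsf1b encodes the second TNF receptor, found mainly on blood and endothelial cells, and stood at 3.49 and 3.51 with vehicle and 3.49 on both maresin 1 arrays. Its groups overlapped, and its difference was -0.01, with a 95% interval from -0.16 to 0.13. For Ltbr, the lymphotoxin beta receptor gene, the difference was 0.02 (-0.14 to 0.18). Tnfrsf18, which encodes GITR, had a difference of 0.09 (-0.08 to 0.26), Tnfrsf13b, which encodes the BAFF and APRIL receptor TACI, one of -0.14 (-0.31 to 0.04), and Tnfrsf19 one of 0.01 (-0.26 to 0.27).

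Death domain receptors went both ways, with Fas the only 1 of the 5 to rise (80% passed, against 24% of all genes). Fas had levels of 0.50 and 0.63 with vehicle and 1.44 and 1.71 with maresin 1. Both maresin 1 arrays were above both vehicle arrays, and Fas rose 2.01-fold (1.01 ± 0.12, adjusted p = 0.0108). Its second, dimmer probe rose by 0.66 ± 0.11 on the log2 scale (adjusted p = 0.0219 over all probes). The call of Fas held whichever array was left out.

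Tnfrsf1a, the main TNF receptor of most cells, had levels of 5.25 and 5.21 with vehicle and 5.22 and 5.24 with maresin 1. The arrays of the 2 groups overlapped, and the difference was -0.01 ± 0.06 (95% interval -0.16 to 0.14). Tnfrsf10b, the TRAIL receptor gene, stood at 1.71 and 1.77 with vehicle and at 1.46 and 1.51 with maresin 1. It fell by 0.26 ± 0.06 on the log2 scale (adjusted p = 0.0475) without overlap, but its other probe missed the threshold at -0.07, and the call was lost without any 1 array (adjusted p up to 0.191) and with the mean of its probes (-0.16, adjusted p = 0.119). Tnfrsf25, which encodes the TL1A receptor DR3, fell by 0.45 ± 0.06 on the log2 scale (adjusted p = 0.0140) and Tnfrsf21, which encodes DR6, by 0.34 ± 0.07 (adjusted p = 0.0330). The calls of both genes were lost without any 1 array. The other probe of Tnfrsf21 had a value of -0.19 and missed the threshold (adjusted p = 0.195 over all probes).

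All 4 receptor genes of the decoy, soluble or mouse-specific kind rose, where 11.2% of all genes did. Tnfrsf11b encodes osteoprotegerin, a soluble decoy receptor that captures the Tnfsf11 product. Its level was -4.53 and -4.21 with vehicle and -3.43 and -3.11 with maresin 1, from linear signals of 41.5 and 53.2 against 88.0 and 97.8. It rose 2.15-fold (1.10 ± 0.16, adjusted p = 0.0178), with a difference of 0.57 under normexp. The call of Tnfrsf11b was lost without vehicle replicate 1 or maresin 1 replicate 2 (adjusted p up to 0.0678).

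Tnfrsf22 and Tnfrsf23 encode mouse decoy receptors for TRAIL, and Tnfrsf26 encodes a mouse-specific relative. Tnfrsf26 stood at 1.45 on both vehicle arrays and at 2.13 and 2.11 with maresin 1, and rose 1.60-fold (0.67 ± 0.05, adjusted p = 0.00553). Tnfrsf23 stood at 2.66 and 2.73 against 3.31 and 3.23, and rose by 0.58 ± 0.07 (adjusted p = 0.0104). Its other 2 probes rose by 1.05 ± 0.08 and 0.93 ± 0.08. Tnfrsf22 stood at -1.79 and -1.88 against -1.35 and -1.25, and rose by 0.54 ± 0.07 (adjusted p = 0.0141). None of the 3 genes had groups that overlapped. Without vehicle replicate 1 the calls of Tnfrsf23 and Tnfrsf22 were lost (adjusted p = 0.0563 and 0.0537), and that of Tnfrsf22 also without vehicle replicate 2 (0.0659) or maresin 1 replicate 2 (0.0625). The 3 receptors are related in sequence, and hybridisation between them was not tested.

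**Figure D4:**
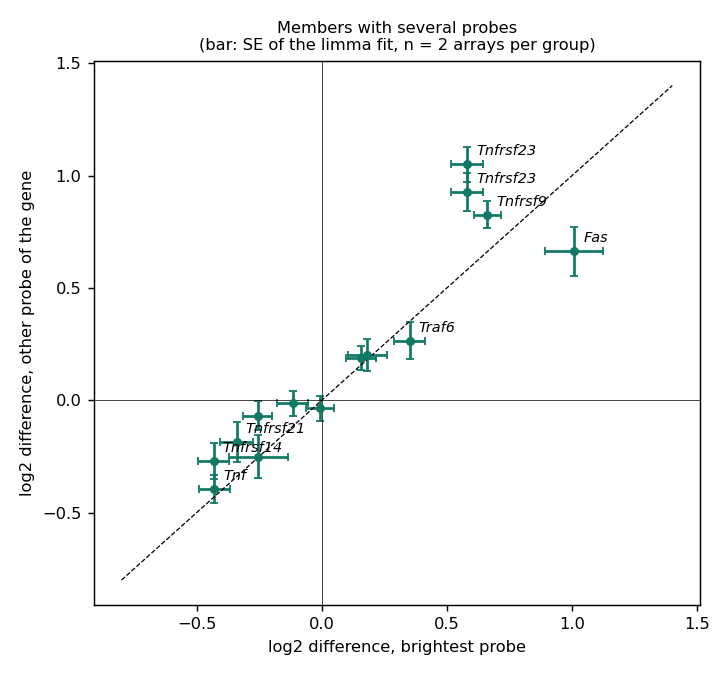
Log2 difference at the brightest probe of a gene (x axis) against its other kept probes (y axis) for the 13 members with several, with bars for the fitted SE (n = 2 per group) and a dashed line of equal values. Each pair has the same sign, and Tnfrsf23 and Fas lie farthest from the line.

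Probes of 1 gene gave the same direction for all 13 members that had several kept probes. No member had probes that passed in opposite directions, and for 4 members (Fas, Tnf, Tnfrsf23 and Tnfrsf9) each probe passed. The widest gap between probes of a gene was 0.47 on the log2 scale, for Tnfrsf23. Tested probe by probe, 16 of the 54 kept member probes were higher and 11 lower, against 11.6% and 12.4% of all 31128 kept probes.

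Of the 7 TRAF adaptor genes, 2 rose and 5 did not pass (28.6% passed, against 24% of all genes). Traf6, whose product also serves Toll-like and interleukin-1 receptors, had levels of 0.06 and 0.13 with vehicle and 0.42 and 0.48 with maresin 1. It rose 1.28-fold (0.35 ± 0.06, adjusted p = 0.0257), but its other probe had a value of 0.27 and missed the threshold (adjusted p = 0.0888). Traf4 rose by 0.29 ± 0.06 (adjusted p = 0.0343). The calls of both were lost without any 1 array (adjusted p up to 0.119 and 0.151).

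Traf1, itself a target of NF-kappaB and an adaptor of the second TNF receptor, stood at 2.79 and 2.94 with vehicle and at 2.94 and 2.92 with maresin 1, with overlap, and its difference was 0.06 (95% interval -0.13 to 0.26). Traf2, the adaptor of both TNF receptors, stood at 4.69 and 4.78 against 4.85 and 4.98, a difference of 0.18 (-0.02 to 0.39). Traf3, a brake on the non-canonical NF-kappaB route, stood at 3.50 and 3.42 against 3.32 and 3.37, a difference of -0.12 (-0.29 to 0.05). The difference was 0.16 for Traf5 (-0.004 to 0.32) and -0.02 for Traf7 (-0.17 to 0.13).

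Matched ligands and receptors can be set side by side. Cd70 and its receptor gene Cd27 both fell (-1.41 and -0.95), and Fasl and Fas both rose (0.29 and 1.01). For TWEAK and Fn14, the receptor gene Tnfrsf12a rose (0.74) while Tnfsf12 had a value of 0.14. For 4-1BB and its ligand, Tnfrsf9 rose (0.66) while Tnfsf9 had a value of -0.06. Tnf and Lta fell while Tnfrsf1a and Tnfrsf1b each had a value of -0.01, and Ltb fell while Ltbr had one of 0.02. For TRAIL, Tnfsf10 had a value of 0.38, the signalling receptor gene Tnfrsf10b fell (-0.26), and the decoy genes Tnfrsf22 and Tnfrsf23 rose (0.54 and 0.58). These values share the same 4 arrays, and the difference between a ligand and its receptor was not tested.

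Several members neighbour each other in the mouse genome (order of protein-coding genes in the RefSeq table of GRCm38.p6). Ltb, Tnf and Lta lie side by side on chromosome 17, and all 3 fell. Tnfrsf26, Tnfrsf22 and Tnfrsf23 lie side by side on chromosome 7, and all 3 rose. In other places neighbours differed. Cd70 lies between Tnfsf9 and Tnfsf14 on chromosome 17, and these had values of -0.06 and -0.07. On chromosome 1, Tnfsf18 fell (-0.62) and its neighbour Fasl rose (0.29). On chromosome 6, Cd27 fell (-0.95), with Ltbr and Tnfrsf1a close by at 0.02 and -0.01.

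**Figure D5:**
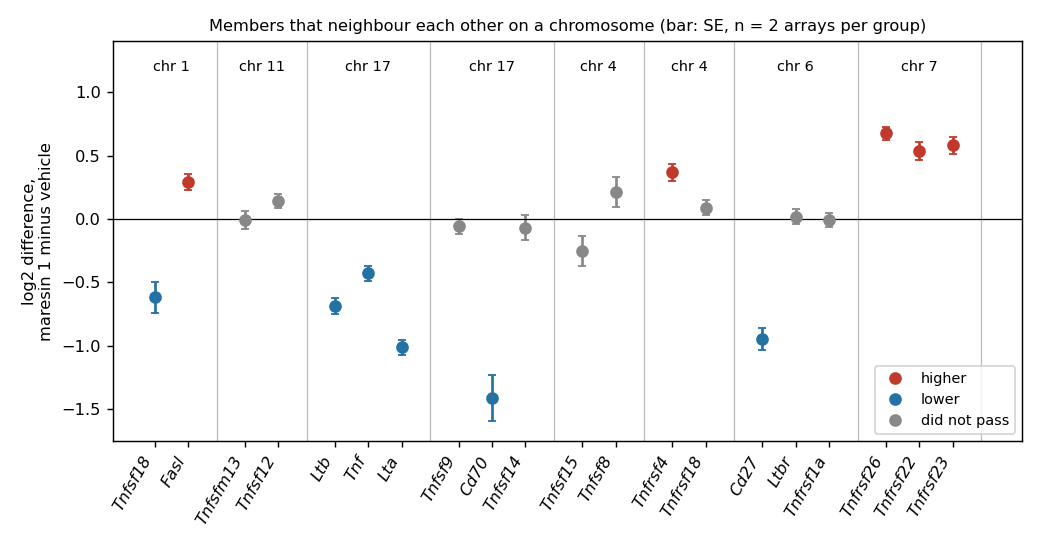
Log2 difference of members that neighbour each other on a chromosome, in genome order and without distances; points are fitted differences, bars the SE (n = 2 arrays per group), and colours show the call. The chromosome 17 group of Ltb, Tnf and Lta lies below 0 and the chromosome 7 group of Tnfrsf26, Tnfrsf22 and Tnfrsf23 above it, while Cd70 stands apart from its neighbours.

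Of 7 family members that carry other symbols, 3 were measured. Cd40, the co-stimulatory receptor of macrophages and B cells, had levels of 2.30 and 2.26 with vehicle and 3.14 and 3.22 with maresin 1, and rose by 0.90 ± 0.06 (adjusted p = 0.00425). Eda2r, a receptor of ectodysplasin A2, rose by 1.20 ± 0.07 (adjusted p = 0.00341). Relt did not pass (adjusted p = 0.992). The calls of Cd40 and Eda2r held whichever array was left out. Cd40lg, Eda, Edar and Ngfr were not well above background.

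Downstream of the receptors, 6 of 45 listed signalling genes rose, 3 fell and 36 did not pass (20.0% passed, against 24% of all genes; median difference 0.10). In the receptor complex and cell death list, 3 of 12 rose (median 0.11): Cflar (0.42 ± 0.08), an inhibitor of caspase-8, the necroptosis kinase gene Ripk3 (0.40 ± 0.05) and Bid (0.28 ± 0.06). Xiap had a value of 0.18 and did not pass. Among the kinases, 2 of 12 fell (median 0.01), Map3k5 (-1.26 ± 0.05), which encodes the stress kinase ASK1, and Ikbkb (-0.27 ± 0.05), while Tank (0.23) and Tbk1 (0.26) did not pass. In the NF-kappaB list, Rel (0.80 ± 0.08) and Nfkb1 (0.44 ± 0.06) rose, Nfkbiz fell (-0.37 ± 0.07), and 7 of 10 did not pass, with a median of 0.11. Of 11 genes of ubiquitin editing and feedback, 1 rose (median 0.12), Tnip2 (0.27 ± 0.06), and Tnfaip3, the feedback inhibitor A20, had a value of 0.23 and did not pass (adjusted p = 0.0685). Map3k5 and Rel passed whichever array was left out. With 1 array left out, 1 or 2 of the 45 were higher and 1 lower: Cflar also passed without maresin 1 replicate 1, and the other 6 calls were lost without any 1 array.

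Genes that TNF is known to induce went both ways. Of 19 measured, 10 rose, 4 fell and 5 did not pass (73.7% passed, against 24% of all genes, median 0.26). The chemokine gene Cxcl1 rose by 1.66 ± 0.11, the cyclooxygenase gene Ptgs2 by 1.28 ± 0.07, the macrophage growth factor gene Csf1 by 0.93 ± 0.08 and Gadd45b by 0.78 ± 0.06, each with a call that held whichever array was left out, as did that of Cxcl2 (0.85). The other 5 that rose (Tnfaip8, Ccl2, Ccl4, Il6 and Ier3, with values of 0.26 to 0.42) lost their calls without any 1 array. The 4 that fell, named after their values were seen, were Tnfaip2 (-0.65 ± 0.08), Il1b (-0.56 ± 0.05), Sod2 (-0.47 ± 0.08) and Ccl3 (-0.37 ± 0.06). The calls of Sod2 and Ccl3 were lost without any 1 array, that of Tnfaip2 without either vehicle array, while that of Il1b held throughout. Many of these genes answer to other signals too, and Tnfaip6 was not well above background. Of 4 genes of ligand shedding, 50% passed, against 24% of all genes. Adam17, which encodes the enzyme that releases TNF from the membrane, fell (-0.35 ± 0.05) and Rhbdf1 rose (0.33 ± 0.06). Both calls were lost without any 1 array, and Rhbdf2 (0.19) and Adam10 (-0.06) did not pass.

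Markers of lymphocytes went both ways on these arrays, and so did lymphocyte-type members. Among such members, for which no list was fixed, Cd27, Cd70, Lta, Ltb and Tnfrsf25 fell, and Tnfrsf13c, Tnfrsf4, Tnfrsf9 and Fasl rose. Others such as Tnfrsf13b and Tnfrsf18 did not pass. Of 7 B cell markers measured, 3 rose and 4 did not pass (median 0.44, and 42.9% passed against 24% of all genes). Ms4a1 (1.21 ± 0.09), Cd79b (0.74 ± 0.08) and Fcer2a (1.25 ± 0.23) rose, while Cd22, with the highest signal, had a value of 0.15. Named after their values were seen, Cr2 (-0.72, adjusted p = 0.0523) and Pax5 (-0.42, adjusted p = 0.137) lay lower without overlap but did not pass, and Cd79a had a value of 0.44. Their summed linear level, in units of the array's 75th percentile, was 6.55 to 6.65 with vehicle and 8.41 to 8.56 with maresin 1, and Blk was not well above background. Of 13 T and NK cell markers, 4 rose and 6 fell (median -0.22, and 76.9% passed against 24% of all genes). Gzma (1.37 ± 0.09), with the highest signal, and Cd8a (1.27 ± 0.06) rose, and Lck (-0.51 ± 0.06) and Cd2 (-0.47 ± 0.06) fell. Their summed level was 56.2 to 57.3 with vehicle and 84.4 to 90.0 with maresin 1, but Gzma made up that gap. The other 12 markers summed to 37.97 to 38.07 with vehicle and 38.1 to 39.3 with maresin 1. That sum held opposite changes. The linear level of Gzmb was 17.1 to 17.4 with vehicle and 21.6 to 22.6 with maresin 1. Others were lower, such as Cd3d (4.22 to 4.26 against 3.57 to 3.70) and Lck (4.59 to 4.79 against 3.22 to 3.36). Of the 10 T and NK calls, those of Gzma and Cd8a held whichever array was left out, those of Lck and Cd2 held only without maresin 1 replicate 1, and the other 6 were lost without any 1 array. The call of Fcer2a held only without vehicle replicate 2. The part of lymphocytes in the members' differences was not tested.

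Dendritic cell markers were mixed. Of 9 measured, 6 rose and 3 did not pass (median 0.47; 66.7% passed, against 24% of all genes), led by Itgax (2.39 ± 0.08), Batf3 (1.89 ± 0.06), Clec9a (0.99 ± 0.06) and Cd209a (0.73 ± 0.10), while Siglech (-0.28), with the highest signal, Flt3 (-0.28) and Cd24a (-0.16) lay lower without overlap and did not pass. Of the 6 calls, 3 (Itgax, Batf3 and Clec9a) held whichever array was left out. The summed level of the 9 markers was 47.9 to 51.3 with vehicle and 74.58 to 75.04 with maresin 1, and Xcr1 was not well above background. Without Batf3 the sum was 41.2 to 44.6 with vehicle and 49.9 to 50.5 with maresin 1. Within that rest, the linear level of Itgax was 1.45 to 1.46 with vehicle and 7.21 to 8.08 with maresin 1, while that of Siglech was 26.3 to 30.3 and 22.8 to 23.8. Of 10 sinusoidal endothelial markers, 3 rose and 1 fell (median 0.01, and 40% passed against 24% of all genes). Stab2 (0.47 ± 0.07), which had the highest signal, Pecam1 (1.15 ± 0.06) and Cdh5 (0.33 ± 0.08) rose, and Gpr182 fell (-0.69 ± 0.09). Of these, the call of Pecam1 alone held whichever array was left out. Of 8 stellate cell and fibroblast markers, 2 fell (median -0.36), and Acta2, with the highest signal, had a value of -0.06. Hepatocyte markers had 2 of 10 lower (median -0.31), with Alb at -0.23, and biliary markers 1 of 6 higher (median 0.29), with Spp1 at 0.23. Neutrophil and monocyte markers had 1 of 9 lower, Ccr2 (-0.70 ± 0.06), and Ly6c2 at -0.04. Of the 9 Kupffer cell and macrophage markers, Adgre1 fell (-0.67 ± 0.06) and Csf1r rose (0.29 ± 0.07, lost without any 1 array). Marco, with the highest signal, had a value of -0.19. In the stellate, hepatocyte, biliary, neutrophil and Kupffer cell lists, 11.1% to 25% passed, against 24% of all genes. The part of these cell types in the members' differences was not tested.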

How the data were processed

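RNA of 4 Kupffer cell samples was measured on one-colour (Cy3) Agilent arrays, 2 given vehicle and 2 given maresin 1. The deposited scanner files hold linear intensity values, which the authors extracted with Agilent Feature Extraction 11.0.1.1 per the file headers, with no normalization between arrays. The series' deposited table holds log2 values of 29710 probes. Its scale is unstated, but each column correlated with log2 of the same array's processed signal (r = 1), with medians of 9.07, and its sorted columns differed by at most 0.00217. It served as an alternative.

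From each log2 processed signal the 75th percentile of its array, taken over 59305 non-control spots, was subtracted, and spots marked as outliers were left out (94 to 123 per array). No spot was saturated. Probes had to be well above background on the 2 arrays of a group, either one (31128 of 56605 probes). Their accessions in the array design were matched to a table of RefSeq genes (GRCm38.p6), which gave 32994 probes (58.3%) 1 symbol each. Each gene took its brightest kept probe. No member lacked a value on any array.

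Genes were tested with limma 3.58.1 in R 4.3.3 (lmFit and eBayes, two-sided, Benjamini-Hochberg over 24067 genes, threshold 0.05, no replicate term), and 95% intervals came from the same fit. A simulation used 24067 genes, with 50 of them changed per size. The test found 6% of those set to a log2 change of 0.5, 54% of those set to 1 and 90% of those set to 2 or 3. It made 1 false call among 121. Far fewer genes were changed there than the 5768 that passed in these data, which makes the adjusted threshold stricter. These shares therefore do not give the power of the test in these data. An exact permutation test of 2 against 2 arrays cannot go below p = 0.333 and was not used. The number of arrays limits the precision.

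Values on each array are given for members past the threshold with groups that do not overlap and a difference of at least 0.5, and in every case for 15 members such as Tnf, Fas and Traf2; for other lists, up to 4 genes with the smallest p and the brightest marker are named. The members and lists were chosen with earlier results of these data known. Alternatives were quantile normalization, normexp (offset 50), the authors' table, no filter and a stricter filter, the mean of a gene's probes, each probe alone, the replicate block, a variance trend and leaving out each array. The receptor gene left out by the rule and 1 B cell marker are not reported here.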

Additional observations from a re-analysis of the deposited data

How the results depend on the processing

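Member counts of 12 higher and 10 lower genes were 12 and 10 with quantile normalization, in the authors' value table and with each probe tested alone, 13 and 9 with normexp, 13 and 10 with the stricter filter, 12 and 9 with probe means and 15 and 10 with a variance trend. With no filter on dim probes they were 4 and 4, all among the 22. With the replicate number as a block they were 8 and 7. Leaving out 1 array gave 4 to 9 higher and 3 to 6 lower. Downstream signalling genes, 6 higher and 3 lower, were 12 higher with normexp, 2 and 1 with no filter, 17 higher with a variance trend and 3 and 1 with the replicate block. Leaving out 1 array gave 1 to 2 higher and 1 lower. Over all genes, 2700 higher and 3068 lower became 1087 and 972 with no filter, 1766 and 1926 with the replicate block and 4524 and 4672 with a variance trend, and 1011 to 1336 and 916 to 1489 without 1 array.

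The replicate numbers do not pair the arrays: deviations of same-numbered arrays correlated with r = -0.03 over genes. Among the 23 members with values on each array, the block lost the calls of Fasl, Tnfrsf10b, Tnfsf18 and Traf6. Tnfsf10 passed with normexp, the stricter filter and a variance trend, and Traf2 with a variance trend. That trend lost the call of Tnfsf18 (adjusted p = 0.0573), and 9 of its 10 lower members were shared with the main fit. Signs turned only for differences that passed in no such fit: without 1 array, Tnfrsf1a ranged from -0.027 to 0.012, the highest without vehicle replicate 1, with 0.0020 where maresin 1 replicate 1 was left out, and Traf1 ranged from -0.0084 to 0.13, the lowest without vehicle replicate 1. The difference of Tnfrsf1a was -0.16 with quantile normalization and -0.13 in the authors' table. For Tnfrsf1b it was -0.095 in both, and neither receptor passed there. The cause of these changes was not tested. More genes entered the test with no filter, and fewer arrays with 1 left out. Dim probes limit Cd70, Cd27, Tnfsf18 and Tnfrsf11b: normexp moved their differences by over 1.5 times.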
